A study of Homo sapiens with 6 samples.

Results

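Cytosolic ribosomal protein genes encode the proteins of the small and large subunits of the ribosome outside mitochondria. They were taken by symbol: RPL or RPS followed by a number, with the letter and digit endings of this nomenclature, plus RPLP0, RPLP1, RPLP2 and RPSA. The rule found 86 of the 28069 genes in the deposited expression tables, 34 with small-subunit and 52 with large-subunit names. RNA-seq was made from K562 cells, an established human myeloid leukaemia line, in 6 libraries. The 2 control libraries, labelled wild type, carried the guide RNA sgNeg2. A further 2 libraries carried ZNF410 sgRNA1 and 2 carried ZNF410 sgRNA2, CRISPR guides against the zinc-finger transcription factor ZNF410, and all 4 were labelled ZNF410 knockout. The libraries of each group were numbered replicate 1 and replicate 2. The labels do not say whether a number stands for a separate culture, a day or a clone, nor whether the knockout cells were a pool or clones, so p-values measure the spread between these libraries, which may be technical.

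Every cytosolic ribosome needs a copy of nearly every one of these proteins, and the mRNAs are among the most abundant in growing cells. In vertebrates most of them start with a 5′ terminal oligopyrimidine (TOP) tract, an unbroken run of C and U at the cap through which mTOR signalling and LARP1 govern their translation and stability. Loss of an allele of several of them causes Diamond-Blackfan anaemia, a failure of red-cell production, which is why the family is of interest in an erythroid line such as K562.

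The start of the transcript is where these genes resemble each other, so the genomic bases around the RefSeq start sites (build GRCh38.p14) are shown for the members that the results below turn on. Each stretch holds the 20 bases before and 15 bases after the start, written 5′ to 3′ on the gene's strand. Capitals mark an unbroken run of at least 7 pyrimidines that touches the 3 bases either side of the start, and a stretch with no capitals has no such run.
RPS18: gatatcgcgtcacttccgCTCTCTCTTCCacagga
RPL13: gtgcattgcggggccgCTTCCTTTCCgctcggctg
RPL3: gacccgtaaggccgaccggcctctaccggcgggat
RPS26: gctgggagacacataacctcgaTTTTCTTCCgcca
RPS27: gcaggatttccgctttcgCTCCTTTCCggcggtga
RPS27L: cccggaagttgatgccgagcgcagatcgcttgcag
RPL22: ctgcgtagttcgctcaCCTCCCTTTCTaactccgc
RPL22L1: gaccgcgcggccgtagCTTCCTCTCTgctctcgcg
RPL7L1: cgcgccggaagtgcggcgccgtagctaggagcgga
RPL26L1: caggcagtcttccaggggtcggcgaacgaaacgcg
These stretches lie at chr6:33272055-33272089 (plus strand) for RPS18, chr16:89560662-89560696 (plus strand) for RPL13 and chr22:39319609-39319643 (minus strand) for RPL3. They lie at chr12:56041898-56041932 (plus strand) for RPS26, chr1:153990742-153990776 (plus strand) for RPS27 and chr15:63157463-63157497 (minus strand) for RPS27L. They lie at chr1:6199581-6199615 (minus strand) for RPL22, chr3:170870181-170870215 (minus strand) for RPL22L1, chr6:42879596-42879630 (plus strand) for RPL7L1 and chr5:172958709-172958743 (plus strand) for RPL26L1. RPS18 and RPL13 carry a run at the start, whereas RPL3 has only shorter ones. RPS27 and RPL22 carry a run, and so does the paralog RPL22L1, but the paralogs RPS27L, RPL7L1 and RPL26L1 do not.

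Of the 86 members, 69 had a RefSeq entry, and 52 of those 69 had such a pyrimidine run, against 16.2% of the 27305 genes in the same table. Other motifs were searched on both strands of the window from 250 bases before to 50 bases after the start. The ETS-type motif CCGGAAG was found in 24 of 69 members and 12.2% of all genes, and ATGGCGG, the core of the YY1 motif, in 14 of 69 and 6.66%. TATAAA was found in 7 of 69 and 14%. CCCATAA, taken here as the core of the site reported for ZNF410, was found in 2 members, RPL11 and RPL7L1, and in 2.23% of all genes. A match describes letters in the window and is not a measured site.

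Of the 86 members, 82 had a mean of at least 10 estimated counts per library and were tested. The other 4 were like-named paralogs (RPL10L, listed at 0 in every library, RPL3L, a muscle paralog at no more than 0.31 TPM, and 2 others listed at 0). Levels were compared between genes in TPM, an abundance divided by gene length. The 77 tested members that are not like-named paralogs had a median of 3547 TPM over the 6 libraries, with quartiles of 2312 and 4622 TPM. Of these, 56 lay within 2-fold of that median, 6 above that band and 15 below it. Some of the 15 have long listed lengths, which lower TPM for a given count. RPL27A, RPL13 and RPS23 are listed at 4879, 4507 and 3314 bases and stood at 407, 560 and 463 TPM. Their mean estimated counts were 23795, 30080 and 17790. RPL34, also below the band at 1006 TPM, is listed at 582 bases. The part of listed length in these low values was not tested. Members made up 6 of the 10, 40 of the 50 and 64 of the 100 genes with the highest mean TPM.

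The highest member was RPS18, a protein of the head of the small subunit. RPS18 stood at 29159 (replicate 1) and 19094 (replicate 2) TPM in control, at 28313 and 18258 under sgRNA1, and at 26380.3 and 16902 under sgRNA2. The other high members by mean TPM were RPS27 at 10326, RPL41, one of the shortest human proteins, at 9941, RPS2, which lines the mRNA entry channel, at 8620, RPS28 at 7431 and RPLP1 of the stalk at 7115 TPM. RPS18, RPS27 and RPS28 have listed lengths so close to the fragment length that their effective lengths averaged 78.5, 70.7 and 93.5 bases, and a TPM divided by so short a length is sensitive to that estimate. The lowest tested members were the paralogs RPL22L1 at 27.5, RPL39L at 51.7, RPS27L at 63.3, RPL7L1 at 148 and RPL26L1 at 159 TPM, together with RPS9 at 123 TPM. RPS9, a core protein of the small subunit, is listed with 80 transcripts in the deposited table, so its level is uncertain.

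**Figure D1:**
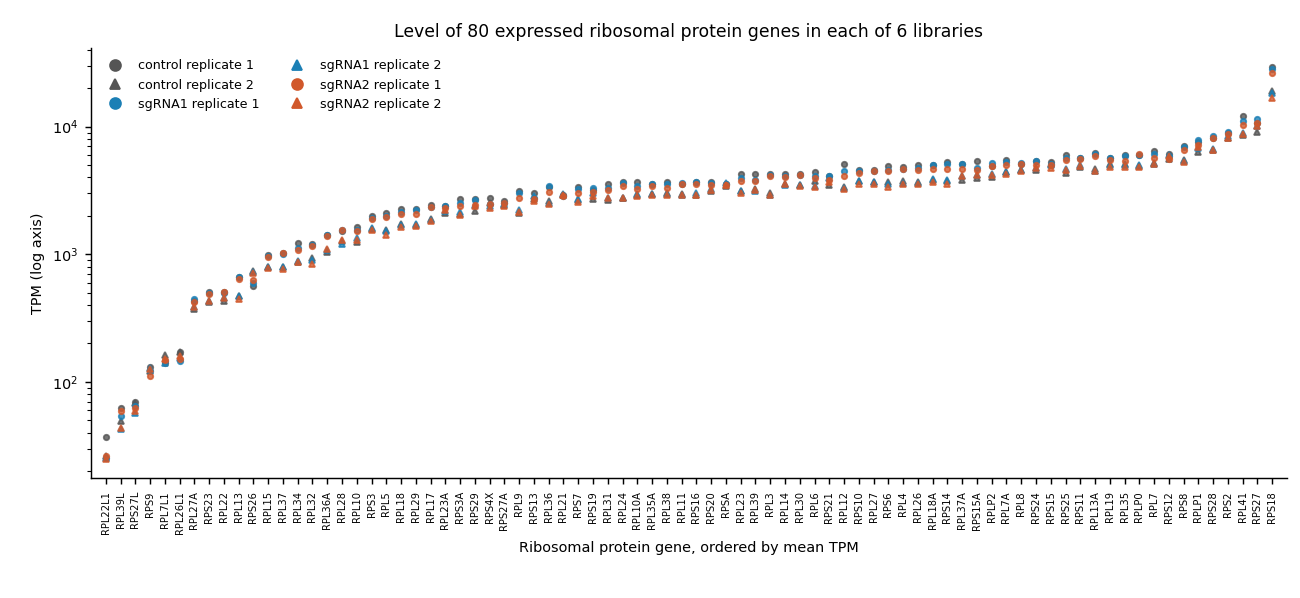
TPM on a log axis for 80 of the 82 tested ribosomal protein genes, ordered by mean, with 1 point per library (circles replicate 1, triangles replicate 2, colour by guide). The quartiles without the like-named paralogs are 2312 and 4622 TPM, 5 like-named paralogs and RPS9 form the low end, and for most genes the triangles lie under the circles whatever the guide.

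Before the comparison, the labels were checked on the targeted gene. ZNF410 stood at 21.2 and 22.4 TPM in the control libraries and at 9.35 to 13.2 TPM in the 4 knockout libraries, and CHD4, a remodeller known as its target, at 126 and 159 against 62.9 to 76.3 TPM. All 10 K562 markers were present, with summed levels of 19124 to 45582 TPM in control and 24705 to 62123 TPM in knockout libraries. Of 10 markers of other cell types, 9 were under 1 TPM in every library, and the exception was the epithelial marker EPCAM. Gene totals were 8788816 to 9537470 whole-number counts and 17228254 to 18689560 estimated counts per library. Libraries separated first by replicate number, so values within a number are given throughout.

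The first question was how much of the transcriptome these genes took and whether that moved with ZNF410 loss. Their summed share of all TPM was 33.5% (replicate 1) and 26.6% (replicate 2) in control, 32.7% and 27.03% under sgRNA1, and 31.2% and 26.4% under sgRNA2. The 3 libraries numbered 1 were all above the 3 numbered 2, and within a number the control and knockout libraries lay close together. The knockout mean of 29.3% ± 3.11 (SD, n = 4) was 0.72 points below the control mean of 30.1% ± 4.84 (SD, n = 2) and that difference was less than either SD. The summed share of 10 globin genes was higher in each knockout library than in its like-numbered control, and with those genes left out of the total the difference was -0.32 points. With 4 against 2 libraries a permutation test cannot reach 0.05, so no p is given. Within a number the knockout minus control differences were -0.78 and 0.39 points with sgRNA1, and -2.24 and -0.27 points with sgRNA2. In estimated counts, not divided by length, the share was 7.39% to 9.84%, and in whole-number counts 6.38% to 8.54%, with the same split by number.

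The small-subunit members held 12.8% to 16.0% and the large-subunit members 13.6% to 17.5% of TPM. The ratio of large to small was 1.07 to 1.09 in the libraries numbered 1 and 1.04 to 1.07 in those numbered 2. Without RPS18 it was 1.31 to 1.33 in number 1 and 1.21 to 1.26 in number 2. With or without RPS18, each library numbered 2 had a lower ratio than each numbered 1. The stalk genes RPLP0, RPLP1 and RPLP2, whose products recruit the elongation factors, held 1.53% to 1.901% of TPM.

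**Figure D2:**
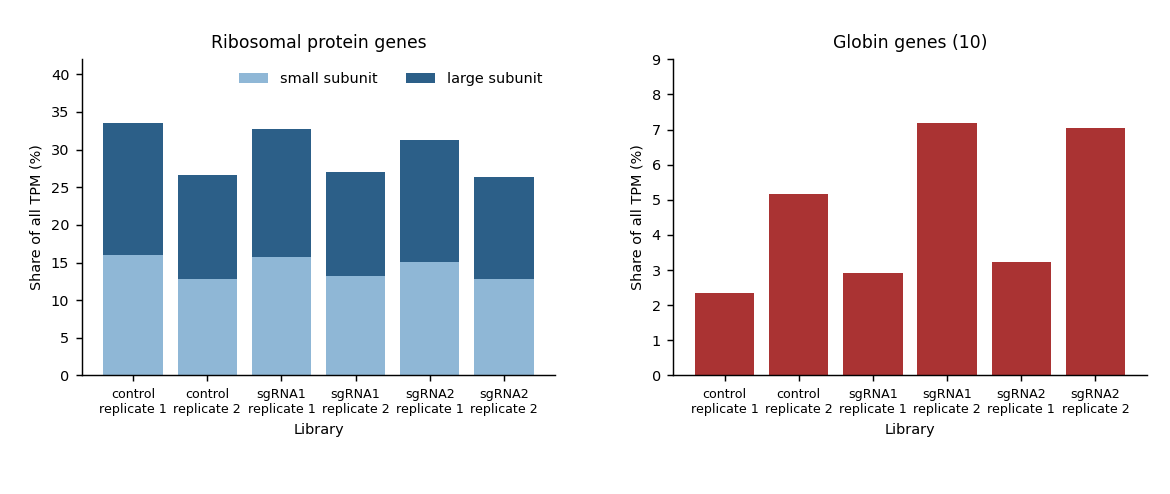
Share of all TPM per library held by the ribosomal protein genes, stacked by subunit (left), and by 10 globin genes (right). The ribosomal share is 31.2% to 33.5% in libraries numbered 1 and 26.4% to 27.03% in those numbered 2, and the globin share is lower in number 1 than in number 2 within each guide.

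Against ZNF410 loss, no ribosomal protein gene was called. In edgeR's quasi-likelihood fit without a block, 0 of 82 members had an adjusted p under 0.05, against a background of 0% of 12764 genes, and 0 of 82 had an unadjusted p under 0.05, against 2.48%. With the replicate number as a block, which took the biological coefficient of variation from 22.2% to 6.17%, 0 of 82 members were called against 3.03% of all genes, and 7 had an unadjusted p under 0.05, a share below the 15.5% of all genes. The DESeq2 Wald test called 0 members without the block (background 0.165%) and 0 with it (background 2.61%). In bulk RNA, fewer cells with a transcript and less of it per cell cannot be told apart. In the blocked edgeR fit the 95% intervals of 80 of 82 members lay within 0.32 of 0 on the log2 scale, and the exceptions were the low-level paralogs RPL22L1 and RPL39L. The median log2 fold change of the members was -0.02 with the block, with 55 of 82 below 0. Over all genes the median was 0.0033, with 49.0% below 0. The sign count rested on the control libraries. Without control replicate 1 the blocked median was 0.020 with 33 of 82 below 0, beside 49.0% of all genes. Without control replicate 2 it was -0.072 with 74 of 82 below 0, beside 49.6%.

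The lowest value belonged to RPL22L1, a paralog that can take the place of RPL22, an RNA-binding protein of the large subunit. RPL22L1 stood at 37.1 (replicate 1) and 26.1 (replicate 2) TPM in control, at 25.4 and 25.1 under sgRNA1, and at 26.4 and 24.9 under sgRNA2. Control replicate 1 stood above the other 5 libraries, and control replicate 2 lay within the range of the knockout libraries. The blocked log2 fold change was -0.30 ± 0.10 (SE; edgeR adjusted p = 0.143). Without control replicate 2 the blocked fit called it at -0.55 (adjusted p = 0.00395), against 1.03% of genes called lower, and without control replicate 1 the blocked value was -0.02, so the difference rested on that library. RPL22 itself stood at 433 to 510 TPM, with a blocked log2 fold change of 0.02 ± 0.05 (SE; edgeR adjusted p = 0.909). RPL22L1 made up 6.77% and 5.69% of the pair's TPM in the control libraries and 4.86% to 5.27% in the knockout libraries.

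All 5 expressed like-named paralogs had blocked log2 fold changes below 0 with a median of -0.15, and none was called. RPL26L1 stood at 172 (replicate 1) and 169.8 (replicate 2) TPM in control, at 147 and 153 under sgRNA1, and at 151 and 159 under sgRNA2. In log2 CPM, the scale on which the background was counted, it was the 1 member whose 4 knockout libraries all lay below both control libraries, against 4.51% of genes, and 0 members lay above, against 4.93%. In TPM, RPS27L and RPS4X also lay below both control libraries in all 4, which made 3 of 82 members, against 4.8% of genes, and 0 lay above, against 4.08%. RPS27L stood at 69.0 (replicate 1) and 68.2 (replicate 2) TPM in control, at 64.3 and 56.6 under sgRNA1, and at 62.2 and 59.5 under sgRNA2. RPS27L, known as a p53 target gene, had a blocked log2 fold change of -0.17 ± 0.07 (SE; edgeR adjusted p = 0.219). For RPL39L, best known from the male germ line, the value was -0.15 ± 0.09 (SE; edgeR adjusted p = 0.485), and it made up 1.33% to 1.53% of its pair with RPL39. RPL7L1, which acts in ribosome assembly, made up 2.13% to 3.04% of its pair with RPL7, with a blocked log2 fold change of -0.06 ± 0.05 (SE). Summed, the paralogs held 0.0481% and 0.0477% of TPM in the control and 0.0417% to 0.0446% in the knockout libraries.

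The highest value belonged to RPS27, a zinc-finger protein of the small subunit. RPS27 stood at 10632 (replicate 1) and 9079 (replicate 2) TPM in control, at 11390.5 and 10066 under sgRNA1, and at 10666 and 10121 under sgRNA2. Each knockout library was above the control of its own number, but control replicate 1 lay above sgRNA2 replicate 2 and sgRNA1 replicate 2. The blocked log2 fold change was 0.13 ± 0.05 (SE; edgeR adjusted p = 0.171). Others among the highest were RPLP1 at 0.07, and RPLP2 and RPS21 at 0.06, each with an SE of 0.05 or 0.06. RPLP1 stood at 7559 (replicate 1) and 6304 (replicate 2) TPM in control, at 7814 and 6788 under sgRNA1, and at 7246 and 6978 under sgRNA2. RPLP0, the base of the stalk, had a blocked log2 fold change of 0.0025 ± 0.04 (SE).

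Compared with the control of the same number, 2 members were higher in 4 of 4 differences (RPS27 and RPLP2; background 17% of genes). Another 6 were lower in 4 of 4 (RPL6, RPS4X, RPL39, RPL26L1, RPL39L and RPS27L; background 16.8%). Both shares of the 82 were below the background. RPL6 stood at 4425 (replicate 1) and 3733 (replicate 2) TPM in control, at 4083 and 3438 under sgRNA1, and at 3961 and 3384 under sgRNA2. RPL6, a large-subunit protein, had a blocked log2 fold change of -0.13 ± 0.04 (SE; edgeR adjusted p = 0.160). When a trend with gene length was removed as well, the value stayed at -0.13 and the adjusted p was 0.0343, the 1 member called in that fit, in which 1.28% of genes were called lower. RPL12, at the base of the stalk, had -0.14 ± 0.06 (SE; edgeR adjusted p = 0.302).

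From a chosen list of disease genes of Diamond-Blackfan anaemia or, for RPS14, of a myelodysplastic syndrome, 11 members showed no called change with knockout. The list does not hold every such gene. Their blocked log2 fold changes ran from -0.09 for RPL5 to 0.05 for RPS19, with SEs of 0.04 to 0.06. RPL5 and RPL11, which together bind MDM2 when ribosome assembly fails, had -0.09 and -0.0023.

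The guides were then taken apart. With sgRNA1, 0 of 82 members were called with the block (background 1.39%), 3 had an unadjusted p under 0.05 (background 11.9%), the median was 0.02 and 29 of 82 were below 0. With sgRNA2, 0 of 82 were called (background 2.26%), 20 had an unadjusted p under 0.05 (background 14.6%), the median was -0.08 and 74 of 82 were below 0. Without the block, 0 of 82 members were called with either guide, and 0 had an unadjusted p under 0.05 (background 1.06% with sgRNA1 and 1.33% with sgRNA2). With a length trend removed in the blocked fit the sgRNA1 median turned to -0.02 with 48 of 82 below 0, beside 0.0055 over all genes, and the sgRNA2 median was -0.05 with 63 of 82 below 0, beside 0.0098. By limma on log2(TPM + 1) the sgRNA1 median was -0.014 with 51 of 82 below 0, beside -0.033 over all genes with 61.0% below 0, and the sgRNA2 median was -0.056, beside 0.026 over all genes. Both comparisons share the control libraries. The lowest adjusted p with sgRNA2 was that of RPL6, at -0.17 ± 0.04 (SE; edgeR adjusted p = 0.0585).

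By number, the medians of the members' log2 CPM differences from the control were -0.04 and 0.08 for sgRNA1 replicates 1 and 2, with 59 of 82 and 8 of 82 members lower. For sgRNA2 replicates 1 and 2 they were -0.11 and -0.04, with 78 of 82 and 56 of 82 lower. The sign of the sgRNA1 difference thus turned between the numbers. Leaving out a control library moved these counts. Without control replicate 2, the blocked fit called 27 members lower with sgRNA2 (background 4.29%) and 4 lower with sgRNA1 (RPL22L1, RPL12, RPS4X and RPL7; background 2.82%). Among the 27, RPL12 had the lowest adjusted p, at -0.31 (edgeR adjusted p = 6.44e-08), and RPL22L1 the lowest value, at -0.57. Without control replicate 1, it called 3 members higher with sgRNA1 (RPL10, RPS2 and RPLP1; background 1.87%) and 1 lower with sgRNA2 (RPL6; background 1.45%). Without sgRNA2 replicate 2, it called RPL12 and RPL7 lower with sgRNA2 (background 1.15%).

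**Figure D3:**
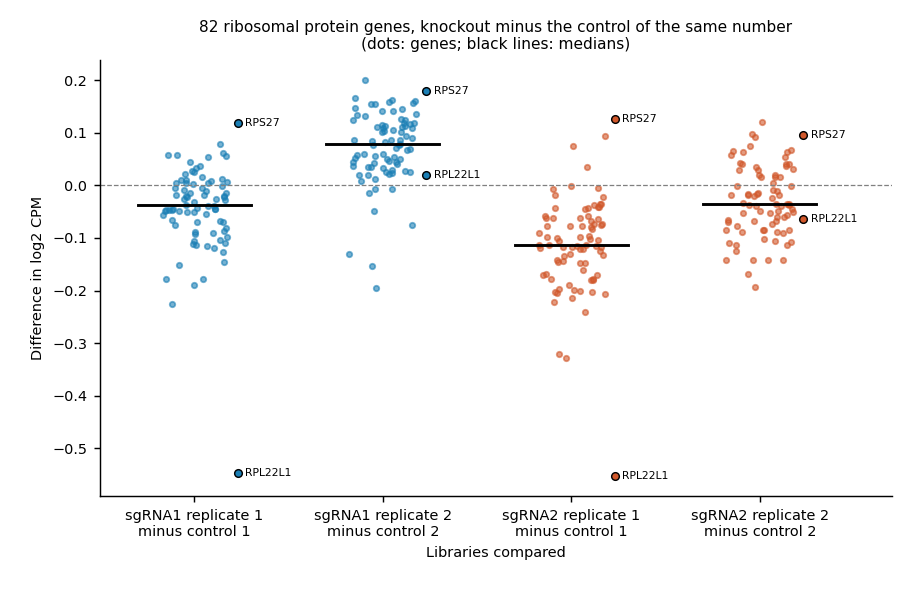
Log2 CPM difference of each of 82 ribosomal protein genes between a knockout library and the control of the same number (dots, with black lines at the medians of -0.04, 0.08, -0.11 and -0.04). RPL22L1 stands far below the rest in the 2 differences of number 1, and RPS27 lies above 0 in all 4 differences.

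Between the guides, 80 of 82 members had a lower value with sgRNA2 than with sgRNA1 in the blocked fit, beside 51.1% of all genes, with a median of -0.09. The difference was small for each: 0 of 82 were called (background 0.0548%), 21 had an unadjusted p under 0.05 (background 4.55%), and 81 of 82 intervals lay within 0.32 of 0. The blocked DESeq2 Wald test called 0 of 82 (background 0.0392%). With a trend with gene length removed in the blocked fit, the median was -0.028 with 69 of 82 below 0, and 2 had an unadjusted p under 0.05 (background 3.21%). In both numbers, 72 of 82 members were lower with sgRNA2 (background 28.2%) and 0 were higher (background 26.7%). The lowest was RPS14 at -0.15 ± 0.05 (SE; edgeR adjusted p = 0.978), and the 5 paralogs had a median of -0.0066. Without control replicate 2, which enters this contrast only through the shared spread and scaling, 7 members were called lower (background 0.411%), and without control replicate 1, 3 (background 0.16%). RPL13, RPS2 and RPL7A were among the called members in both fits, at -0.14, -0.10 and -0.12 to -0.13.

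Most members differed between the replicate numbers. In a fit with group and number, 75 of 82 members were lower in replicate 2 (edgeR adjusted p under 0.05; background 27.1%) and 1 was higher (background 25.5%). The members' median log2 fold change was -0.35, beside -0.0037 over all genes. In 73 of 82 members the 3 libraries numbered 2 all lay below the 3 numbered 1 (background 28.8%), and in 1 they all lay above (background 28.2%). Summed, the share of TPM was 26.7% ± 0.33 (SD, n = 3) in number 2 and 32.5% ± 1.14 (SD, n = 3) in number 1, a difference of -5.80 points that exceeded both SDs. Median differences were -0.40 in control, -0.29 in sgRNA1 and -0.32 in sgRNA2 libraries.

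In this fit the lowest value was that of RPS18, whose level in every library is given above, at -0.66 ± 0.04 (SE; edgeR adjusted p = 5.80e-08). With a length trend removed RPL13 was lowest at -0.63, followed by RPL3 at -0.52 and RPS18 at -0.48. RPL3, next to the peptidyl transferase centre, fell by 0.59 on the log2 scale, RPL13 by 0.58, and RPL12 and RPL9 by 0.54. RPL3 stood at 4291 (replicate 1) and 3006 (replicate 2) TPM in control, at 4163 and 2926 under sgRNA1, and at 4113 and 2902 under sgRNA2. RPL13 stood at 660.0 (replicate 1) and 470.2 (replicate 2) TPM in control, at 669 and 472 under sgRNA1, and at 643 and 443 under sgRNA2. RPL12 stood at 5097 (replicate 1) and 3378 (replicate 2) TPM in control, at 4494 and 3305 under sgRNA1, and at 4119 and 3252 under sgRNA2. For each of these 3 genes every library numbered 2 lay below every library numbered 1.

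RPS26 went the other way. RPS26 stood at 568 (replicate 1) and 736 (replicate 2) TPM in control, at 592 and 719.6 under sgRNA1, and at 627 and 716 under sgRNA2. The protein contacts the mRNA upstream of the start codon at the exit channel, and its gene lies at chr12:56041918-56044697. Every library numbered 2 lay above every library numbered 1, and the log2 fold change was 0.21 ± 0.05 (SE; edgeR adjusted p = 0.00209). The remaining 6 members were not called. Among them, RPL21 stood at 2918 (replicate 1) and 2906 (replicate 2) TPM in control, at 2877 and 2994 under sgRNA1, and at 2875 and 2913 under sgRNA2, with a log2 fold change of -0.06 ± 0.04 (SE). RPS9 had -0.04 ± 0.08, RPL26L1 -0.03 and RPL7L1 -0.01 ± 0.05 (SE).

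**Figure D4:**
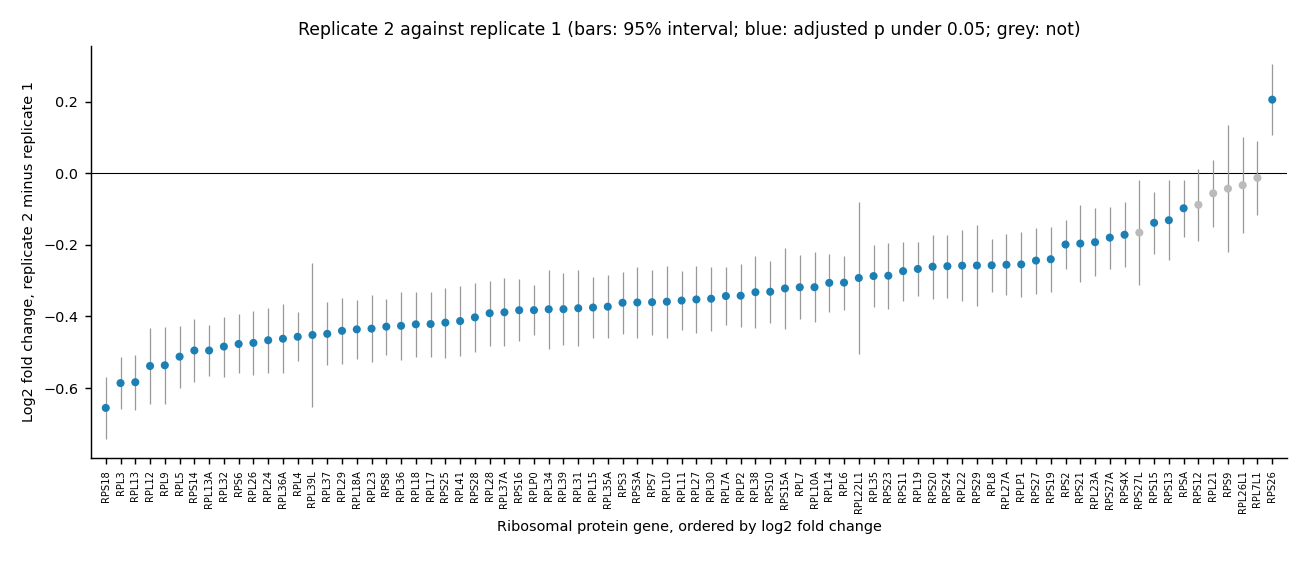
Log2 fold change of replicate 2 minus replicate 1 for 80 of the 82 ribosomal protein genes, in order, with 95% intervals, from the fit with group and number. Of the 80 shown, 73 lie below 0 and are called (blue), RPS18 is lowest at -0.66, and RPS26, at 0.21, is the 1 gene called above 0.

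By subunit, 28 of 31 small-subunit members were called lower and 30 were below 0, with a median of -0.26. Of the large-subunit members, 45 of 46 were called lower and 46 were below 0, with a median of -0.38. Of the 5 paralogs, 2 were called lower, RPL22L1 at -0.29 and RPL39L at -0.45. Among the listed disease genes, RPL5 fell by 0.51, RPS14 by 0.495 and RPL26 by 0.47, against 0.26 for RPS24 and 0.24 for RPS19. Of that list RPS26 was the 1 that rose. In the stalk, RPLP0 fell by 0.38, RPLP2 by 0.34 and RPLP1 by 0.25. Sorted by a pyrimidine run at the listed RefSeq start, members differed little in median fall. The median was -0.36 over 51 tested members with a run and -0.35 over 15 without one. Of these, 47 of 51 and 12 of 15 were called lower. The listed start need not be the 5′ end of the mRNA. RPL4 and RPL9, counted without a run, have one a few bases past it. These medians thus cannot say whether a TOP start went with the fall, which was not tested. RPL3, with no run, and RPS18 and RPL13, with one, were the 3 lowest in the fit with group and number. RPS26, with a run that begins at base 3, rose.

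Several values moved with the replicate number beside the members. Unaligned reads held 4.34%, 4.37% and 4.50% of the whole-number tables in number 1 (control, sgRNA1 and sgRNA2). In number 2 they held 2.92%, 2.69% and 2.89%. The 10 globin genes held 2.34%, 2.92% and 3.22% of TPM in number 1 and 5.16%, 7.17% and 7.04% in number 2. With the globin genes left out of the total, the members' share was 32.3% to 34.3% in number 1 and 28.1% to 29.1% in number 2. The members' median was -0.24 when a trend with gene length was removed, beside -0.0096 over all genes, and -0.27 by limma on log2(TPM + 1), beside 0.069 over all genes. Members called lower numbered 67 with the length trend removed (background 27.8%), 68 by limma (background 19.7%) and 53 of 83 by limma with no filter on low values (background 11.5%). The part of globin content, gene length or unaligned reads in this difference was not tested.

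The other genes of the translation system were described from lists chosen by function, and their counts stand beside 25.5% of all genes called higher and 27.1% called lower in replicate 2, and 3.03% called with knockout in the blocked fit. Outside the naming rule, FAU, a ribosomal protein made as a fusion with a ubiquitin-like sequence, and RACK1, on the small-subunit head, were not called with knockout, and both were lower in replicate 2 (RACK1 -0.47, FAU -0.21). Of 17 translation factors and other TOP mRNAs, 14 were lower in replicate 2, with a median of -0.30, including EEF1A1, the elongation factor that delivers tRNA, at -0.30. With knockout, 1 of the 17 was called in the blocked fit, the intermediate filament gene VIM at -0.49 ± 0.09 (SE; edgeR adjusted p = 0.0104), and NPM1 had -0.15 ± 0.04 (SE; edgeR adjusted p = 0.0556). Of 11 tested snoRNA host genes, 7 were lower and 3 higher in replicate 2, with a median of -0.29. They ran from GAS5 at -1.004 to SNHG12 at 1.09, and 0 were called with knockout.

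Genes that build cytosolic ribosomes were described next. Of 40 ribosome biogenesis genes, 16 were higher and 6 lower in replicate 2, with a median of 0.08, and 0 were called with knockout. Of 12 tested genes of RNA polymerase I and its factors, 6 were higher and 2 lower, with a median of 0.22, and 0 were called with knockout. Of 81 tested mitochondrial ribosomal protein genes, 22 were higher, a share near that of all genes, and 14 lower in replicate 2, with a median of 0.04, and 0 were called with knockout. Among 13 regulators, 9 were higher and 2 lower in replicate 2. LARP1, which binds the TOP start, was at 0.53 ± 0.05 (SE; edgeR adjusted p = 5.13e-06), MTOR at 0.21 and MYC at -0.39. With knockout 1 of the 13 was called in the blocked fit, the ETS factor GABPA at -0.26 ± 0.06 (SE; edgeR adjusted p = 0.0398). The lists' knockout counts without the block were 0.

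The deposited whole-number counts and estimated counts gave different levels for some members. The whole-number count was a median of 0.479 of the estimated count over the tested members, beside 0.549 over 11785 symbols in both tables, and 69 of 82 members lay between 0.4 and 0.6. RPL29, RPLP2 and RPL39L were highest at 0.668, 0.608 and 0.546. In 5 members the ratio was under 0.1, a share close to the 5.01% over all symbols. RPS10 averaged 25.7 whole-number against 15385 estimated counts, RPL17 23.2 against 12164, RPS18 82 against 22985 and RPL36A 60.3 against 9350.1. For RPS10, RPL17 and RPL36A the estimated table also lists a readthrough gene with the neighbour (RPS10-NUDT3, RPL17-C18orf32 and RPL36A-HNRNPH2) at 661, 11.2 and 186 mean estimated counts, and each was at 0 in the whole-number table. Reads of these 3 members can also be given to the readthrough gene, so their levels are uncertain. Most members also have processed pseudogenes in the genome, whose near-identical sequence makes counts of single members, RPS26 among them, uncertain.

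On the whole-number counts, 0 of 82 members were called with knockout without the block (background 0%) or with it (background 1.84%), and 71 were lower (background 23.5%) and 1 higher (background 21.6%) in replicate 2, with a median of -0.35. RPS18 fell by 0.998 ± 0.20 (SE; edgeR adjusted p = 0.000857) on these few counts and RPS26 rose by 0.20 (edgeR adjusted p = 0.00715). RPS10, which fell on the estimated counts, had 0.32 ± 0.29 (SE; edgeR adjusted p = 0.403) on the whole-number counts.

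**Figure D5:**
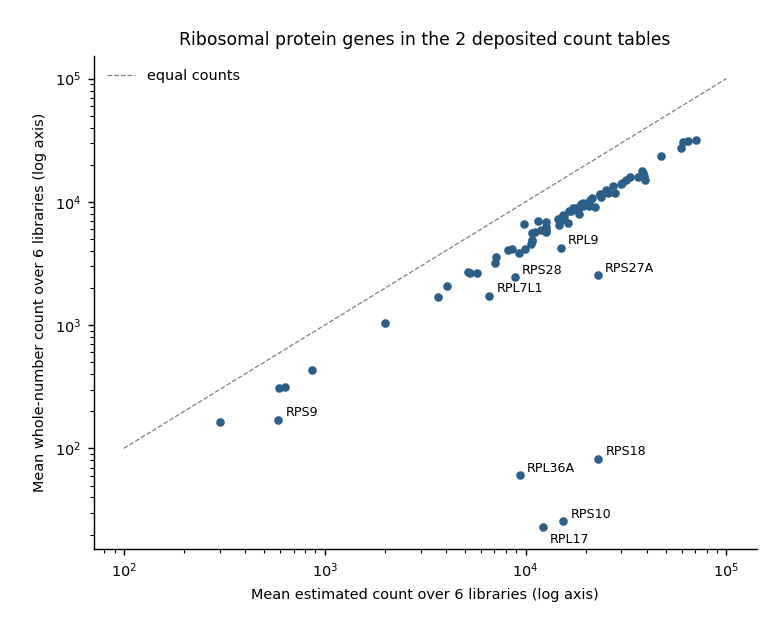
Mean whole-number count against mean estimated count for 80 of the 82 tested ribosomal protein genes, both on log axes, with a dashed line where they are equal. Most genes form a band at 0.4 to 0.6 of the estimated count, and RPS10, RPL17, RPS18 and RPL36A fall under 0.1 of it.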

How the data were processed

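RNA was sequenced in 6 libraries of K562 cells (3 groups of 2), and groups came from the labels' titles. The members, gene lists and rule for named genes were chosen with earlier results of these data known. The named members were the 6 highest and 6 lowest by TPM, the 5 highest and 5 lowest by blocked log2 fold change for knockout and for replicate number, the paralogs with their partners, the anaemia genes, the stalk, and the extremes of the ratio of counts. Further names in the text were chosen after their values were seen.

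The authors deposited whole-number counts per gene symbol. Per the file headers, the second table of each library held an expected count, also called an estimated count, per gene for 28069 genes, made by the authors with no further normalization stated. Beside it stood TPM and FPKM values, which the authors scaled by length and sequencing depth, per the file headers. FPKM entered no result. The submitters' processing notes name Trim Galore, HISAT2 2.2.1, SAMtools 1.9, HTSeq 0.6.1, RSEM 1.3.2, DESeq2 1.36.0 and hg38, with no role or order, and the strand setting was not given in the sources used here. Rows of reads given to no gene held 61.6% to 62.6% of each whole-number table and stayed out of totals and tests.

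Estimated counts were rounded to whole numbers and tested with edgeR 4.0.16 in R 4.3.3 (quasi-likelihood, TMM, filterByExpr by group, 12764 genes, Benjamini-Hochberg over all of them). Log2 fold changes, standard errors and adjusted p-values in the text come from this test on estimated counts unless another is named. Same-numbered libraries of different groups deviated together (r = 0.836, 0.783 and 0.775 over 10639 genes), and PC1 (70.7% of variance) split libraries by number. This pairing comes from the data, since no label explains the number. The fit with a replicate block is therefore given beside the one without. Replicates were checked for duplicate deposits and none was found. Other settings were DESeq2 1.42.0, other scalings and filters, limma 3.58.1 on log2(TPM + 1), removal of a trend with gene length (loess), the whole-number counts, and leaving out each library. Sequences are from RefSeq tables of GRCh38.p14, matched by symbol. Some items covered by the rule for named genes or by the gene lists are not reported here.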

Additional observations from a re-analysis of the deposited data

How the results depend on the processing

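The 0 called members with knockout and with each guide stayed at 0 without the block under the other scalings and filters, DESeq2, limma and the whole-number counts. With the block, the 0 called members were recomputed by the DESeq2 Wald test, limma on log2(TPM + 1), TMM without the members, whole-number counts and removal of a length trend, and the last called 1 member with knockout, RPL6. Members called in replicate 2 in either direction numbered 76, beside 6713 of 12764 genes. The fewest under these settings were 54, by limma with no filter, beside 4895 of 18334 genes. The most were 77, with a mean of at least 50 counts, beside 5983 of 10639 genes. The members' median in replicate 2 was -0.35 and became -0.24 with a length trend removed, and -0.270989, -0.271051 and -0.270532 by limma on log2(TPM + 1), log2(TPM + 0.1) and log2(TPM + 1) with no filter, beside 0.069, 0.078 and 0.014 over all genes in those 3 fits. Of the members described here, those whose replicate difference turned sign with all 6 libraries were RPL21 (0.068 with the length trend removed, 0.024 by limma), RPS9 (0.069 and 0.041), RPL26L1 (0.075 and 0.040), RPS12 (0.046 with the length trend removed), RPL7L1 (0.097 on whole-number counts, 0.063 by limma), and, on whole-number counts, RPS10 (0.32), RPL17 (0.80) and RPL36A (0.35). RPS9 was called at -0.42 on whole-number counts. The cause was not tested.

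Leaving out 1 library at a time, counts of called members ranged from 0 to 1 with knockout, 0 to 4 with sgRNA1, 0 to 27 with sgRNA2 and 0 to 7 between the guides, and from 73 to 74 for replicate 2. Without control replicate 1 they were 3 with sgRNA1 and 3 between the guides. Each count above 0 with knockout or a guide came from a replicate block fit, in which the group with 1 library left is assumed to vary like the others. The knockout median ranged from -0.22 to 0.20 without the block, where leaving out a control library leaves controls of 1 number, and from -0.072 to 0.020 with it, the replicate median from -0.38 to -0.31, and the unblocked difference in TPM share from -4.14 to 2.70 points. Without the block, knockout values of single members that changed sign ranged from -0.60 to 0.031 for RPL22L1, -0.36 to 0.090 for RPL39L, -0.46 to 0.23 for RPL12, -0.072 to 0.19 for RPS21, -0.10 to 0.24 for RPLP2 and -0.094 to 0.25 for RPLP1, and RPS27 ranged from 0.0093 to 0.26. With the block none of these 7, picked as extremes of the blocked fit, changed sign. The blocked ranges were -0.55 to -0.023 for RPL22L1, -0.25 to -0.017 for RPL12, 0.0025 to 0.11 for RPS21, 0.0050 to 0.14 for RPLP1 and 0.11 to 0.15 for RPS27. Other members did change sign. Of all 82, 33 were below 0 in the blocked fit without control replicate 1 and 74 without control replicate 2. Replicate values ranged from -0.13 to 0.072 for RPS9, -0.064 to 0.014 for RPL26L1 and -0.058 to 0.035 for RPL7L1.

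With 2 libraries a group, the blocked 95% intervals of 80 of 82 members reached no further than 0.32 from 0 on the log2 scale. The effect of near-identical copies and of the strand setting of the counting on single members was not tested.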
